A study of Saccharomyces cerevisiae with 42 samples.

Results

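Filamentous growth is the mode in which budding yeast cells elongate, stay attached and invade their substrate. A MAP kinase cascade that ends in the kinase Kss1 and the transcription factors Ste12 and Tec1 drives it, together with nutrient signals, and it shares its upstream kinases with the mating pathway and with the high-osmolarity glycerol pathway of the MAP kinase Hog1. Hog1 is known to keep the filamentation and mating branches quiet in osmotic stress. The 8 genes described here are adhesion, wall, secretion and transcription factor genes of filamentous growth, with NFG1 (YLR042C), a gene named for negative regulation of that growth. They are FLO11 (YIR019C), FLO8 (YER109C), PGU1 (YJR153W), SVS1 (YPL163C), PHD1 (YKL043W), HMS2 (YJR147W), DFG5 (YMR238W) and NFG1. They were picked by name out of 6278 open reading frames on the arrays, and with earlier results of these arrays known. Adjusted p values below therefore set a difference against the spread between replicates and are not independent support for the choice. All 8 had a value in every sample and were among the 5443 genes tested.

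The 3 strains were hog1del, which lacks the kinase gene, HOG1-CCAAX, whose Hog1 carries a prenylation signal that anchors proteins to membranes, and HOG1-GFP, whose Hog1 carries a green fluorescent protein tag. Each was measured after 60 min in 1 M sorbitol at 25 °C and at 0 min, in 3 biological replicates, so that there were 6 groups and no untagged wild type or mock-treated sample. The labels do not say whether a strain is 1 clone, or what its genetic background is. Each value is a log2 ratio of the sample (Cy3) over a common reference pool (Cy5), and is called a level below. The authors combined 2 or 3 technical arrays into each, mostly as their mean. A response is the level at 60 min minus the level at 0 min within a strain and replicate, with limma's adjusted p after Benjamini and Hochberg over all 5443 genes and a threshold of 0.05. Levels compare samples for 1 gene and do not rank genes against each other. With bulk RNA, fewer cells expressing a gene and less RNA per cell cannot be told apart.

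The HOG1 probe bore out the strain labels. HOG1 (YLR113W) was at least 16.4-fold lower in hog1del than in HOG1-GFP at 60 min (log2 −4.03 ± 0.37, SD, n = 3) and at least 8.91-fold lower at 0 min (−3.16 ± 0.21), both lower bounds since a probe for a missing gene reads background. Replicate 1 stood apart from the others. Pairs of technical arrays of 1 extract that held an array numbered 1 correlated at 0.385 to 0.773 across genes, against 0.907 to 0.976 for the other pairs of replicate 1 and 0.965 to 0.979 in replicates 2 and 3. For the 8 genes the median SD between technical arrays was 0.06 to 0.29 in replicate 1 and 0.04 to 0.10 in replicates 2 and 3, and 7 of 336 array values were missing, 3 each for FLO11 and NFG1. Its part in the results was not tested beyond leaving it out, and leaving out its arrays numbered 1, so the replicates are given on their own.

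NFG1 had the largest response of the 8 genes in HOG1-GFP and the clearest order of strains. In hog1del and HOG1-CCAAX the response of HMS2 was larger in size (−1.72 and −1.87). Its responses were 0.90, 1.08 and 1.27 in hog1del, 0.19, 0.31 and 0.42 in HOG1-CCAAX, and 3.80, 2.56 and 2.64 in HOG1-GFP (replicates 1, 2 and 3). The strains did not overlap: every HOG1-CCAAX value lay below every hog1del value, and these below every HOG1-GFP value. The means correspond to 2.12-fold in hog1del, 1.23-fold in HOG1-CCAAX and 8.02-fold in HOG1-GFP, where NFG1 ranked 46 from the top of 5443 genes. NFG1 is in the deposited list of 30 genes that the authors selected with SAM for induction in HOG1-GFP and weaker induction in hog1del, so its values in these 2 strains and their difference of −1.92 ± 0.86 are a description with no test.

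HOG1-CCAAX took no part in that selection. The NFG1 response in HOG1-CCAAX, 0.30 ± 0.12 (n = 3), did not pass (limma adjusted p = 0.2613). It was positive in 3 of 3 replicates and passed without replicate 1 (limma adjusted p = 0.0102). The fit pools the spread over the 3 strains, so the p value over all replicates also rests on the wider HOG1-GFP spread (SD 0.695). As HOG1-GFP and hog1del values chose the gene, nothing is read from either p value. The HOG1-CCAAX response was lower than that in HOG1-GFP by 2.70 ± 0.80 on the log2 scale, and NFG1 ranked 5 from the lowest of all genes. As the HOG1-GFP values in that difference also chose the gene, it is a description with no test. Against hog1del, the HOG1-CCAAX response differed by −0.71, −0.78 and −0.85 in replicates 1, 2 and 3, a mean of −0.78 ± 0.07. The hog1del values in that difference also chose the gene, so it too is a description with no test.

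**Figure D1:**
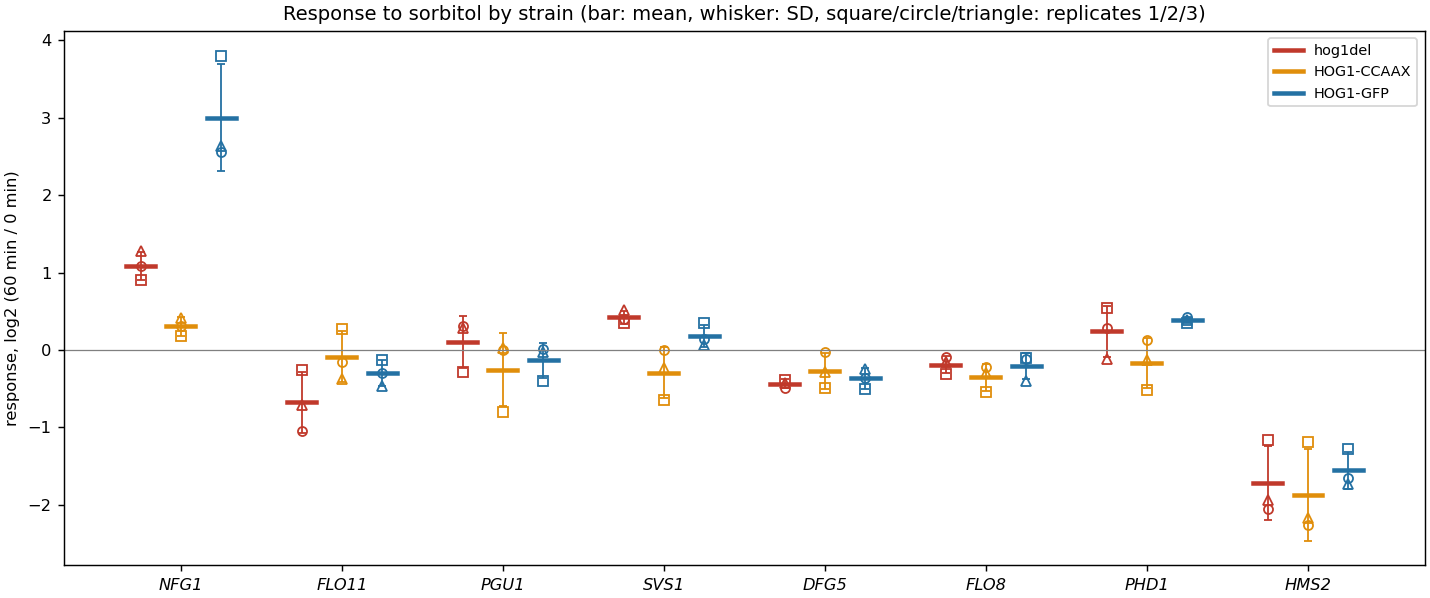
Response of each gene (log2 of the level at 60 min over that at 0 min) in hog1del, HOG1-CCAAX and HOG1-GFP; squares, circles and triangles are replicates 1, 2 and 3, bars the mean and whiskers the SD of 3. NFG1 separates the strains, with means of 1.09, 0.30 and 3.00, while the 3 strains lie close together for HMS2, at −1.72, −1.87 and −1.55.

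The levels of NFG1 show at which time the strains differed most. At 60 min they were −0.47, −0.09 and −0.14 in hog1del, −1.57, −1.24 and −1.10 in HOG1-CCAAX, and 2.17, 1.23 and 1.19 in HOG1-GFP. At 0 min they were −1.37, −1.17 and −1.41 in hog1del, −1.75, −1.54 and −1.52 in HOG1-CCAAX, and −1.64, −1.33 and −1.46 in HOG1-GFP. Before the shock no strain difference of NFG1 passed (adjusted p between 0.2693 and 0.7579), and the 3 HOG1-CCAAX values at 60 min overlapped those of all 3 strains at 0 min. In order of mean level, HOG1-GFP at 60 min (1.53) stood highest and hog1del at 60 min (−0.23) next. The other 4 groups lay between −1.30 and −1.61, and neighbours in that order overlapped. Within replicates at 0 min, hog1del minus HOG1-GFP was 0.16 ± 0.11 and HOG1-CCAAX minus HOG1-GFP was −0.13 ± 0.08. HOG1-CCAAX minus hog1del was −0.29 ± 0.15 at that time. Each had 1 sign in 3 of 3 replicates, and only in the last did the strains not overlap. At 60 min HOG1-CCAAX was 7.11-fold lower than HOG1-GFP (−2.83 ± 0.79), whose values chose the gene, so that no test is given. It was 2.10-fold lower than hog1del (−1.07 ± 0.09), whose values also chose the gene, so that no test is given there either.

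Within the authors' deposited table of 30 genes, NFG1 had the lowest HOG1-CCAAX response relative to hog1del. In means of the fold changes deposited with the list, 27 of the 30 responded more in HOG1-CCAAX than in hog1del. The other 3 were NFG1 (0.30 against 1.09), APQ12 (0.11 against 0.28) and HXT1, a hexose transporter gene (0.185 against 0.209). The medians over the 30 genes were 0.75 in hog1del, 1.47 in HOG1-CCAAX and 2.96 in HOG1-GFP. The genes of the list were selected on HOG1-GFP and hog1del, and the ranks are a description.

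**Figure D2:**
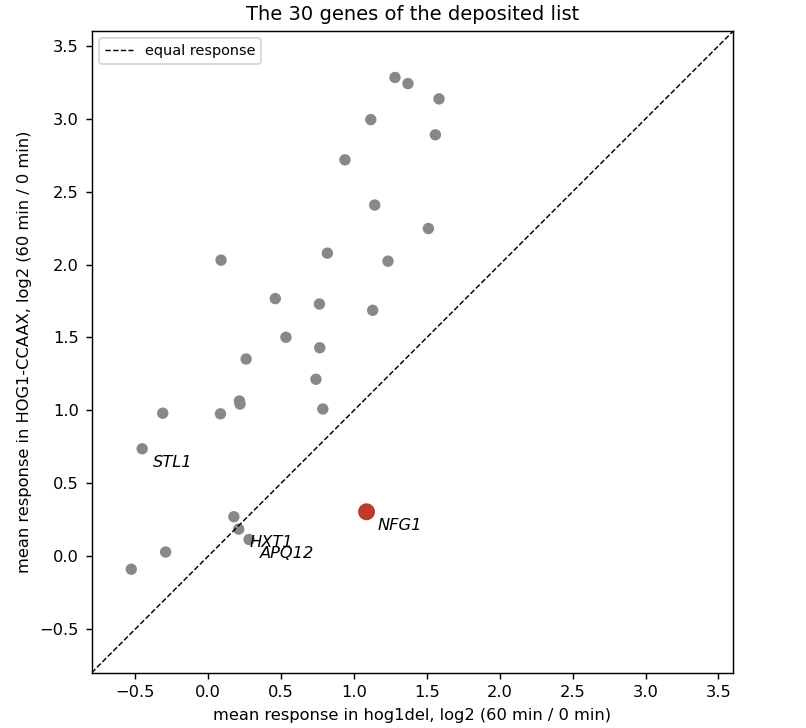
Mean response (log2, 60 min over 0 min) in HOG1-CCAAX against that in hog1del for the 30 genes of the deposited list. Means are of the fold changes deposited with the list. The dashed line marks equal responses and the red point is NFG1. NFG1, at 1.09 in hog1del and 0.30 in HOG1-CCAAX, lies farthest below the line, and 27 of 30 genes lie above it.

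No response difference between strains passed for the open reading frames annotated beside NFG1, whose mean responses ran in the same order of strains with smaller gaps. AFB1 (YLR040C), on one side, responded by 0.51, 0.69 and 0.86 in hog1del, 0.05, 0.93 and 0.90 in HOG1-CCAAX, and 1.15, 0.70 and 0.78 in HOG1-GFP. It rose in each strain (limma adjusted p = 0.0118, 0.0174 and 0.0039), and its response differences had adjusted p between 0.7866 and 0.9962. At 60 min its level in HOG1-CCAAX was lower than in hog1del by 0.60 ± 0.15 and lower than in HOG1-GFP by 0.59 ± 0.40 on the log2 scale, in 3 of 3 replicates each and without overlap (limma adjusted p = 0.0338 and 0.0342), as the level of NFG1 was. YLR041W also rose in each strain, by 0.79 ± 0.45 in hog1del, 0.71 ± 0.34 in HOG1-CCAAX and 0.89 ± 0.16 in HOG1-GFP (limma adjusted p = 0.0062, 0.0097 and 0.0036). TRX1 (YLR043C), a thioredoxin gene on the other side, changed by −0.27 ± 0.39, −0.43 ± 0.30 and −0.26 ± 0.25 in hog1del, HOG1-CCAAX and HOG1-GFP, none of which passed. The 3 genes whose 18 level values most resembled those of NFG1, after each replicate's mean was taken off, were APQ12 (Pearson r = 0.928), ARG3 (0.911) and MSS11 (0.909). These points share arrays and a reference, and the resemblance is a description. MSS11 (YMR164C) encodes a transcription factor of FLO11 and other filamentation genes. It rose by 0.86 ± 0.35 in hog1del, 0.54 ± 0.10 in HOG1-CCAAX and 1.61 ± 0.14 in HOG1-GFP (limma adjusted p = 0.0010, 0.0114 and 3.9e-05). Its response differences from HOG1-GFP missed the threshold (limma adjusted p = 0.0974 for hog1del and 0.0773 for HOG1-CCAAX). MSS11 is named here for resemblance over these same levels, so its p values are not independent support.

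The 7 genes other than NFG1 showed no response difference between strains that passed. Among all 8 genes, 5 passed in hog1del (2 higher, 3 lower), 2 in HOG1-CCAAX (both lower) and 3 in HOG1-GFP (1 higher, 2 lower). Over all genes, 52.9%, 54.2% and 46.8% passed in these strains, and with 8 genes nothing is read from the counts. The median response of the 8 was −0.04, −0.26 and −0.17 in hog1del, HOG1-CCAAX and HOG1-GFP, against −0.01, 0.03 and −0.01 over all genes. These counts include NFG1 in hog1del and HOG1-GFP, where its values chose it. For the response differences against HOG1-GFP, NFG1 alone of the 8 lay past the threshold, and nothing is read from this, since its HOG1-GFP values chose it. For HOG1-CCAAX minus hog1del, 0 of 8 passed by limma, against 0.129% of all genes. An unadjusted p under 0.05 was found for 3 of 8, against 426 of all 5443 genes. The 8 include NFG1, whose hog1del values chose it. As background, 2.57% of all genes passed for hog1del minus HOG1-GFP (0.937% lower) and 0.331% for HOG1-CCAAX minus HOG1-GFP (0.202% lower). The contrasts share strains and are not independent of each other.

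FLO11 encodes the cell surface flocculin needed for adhesion and invasion, and both Tec1 with Ste12 and the protein kinase A pathway act on its promoter. Its levels at 60 min were −0.41, −0.94 and −0.97 in hog1del, −0.16, −0.29 and −0.39 in HOG1-CCAAX, and −0.30, −0.68 and −0.66 in HOG1-GFP. At 0 min they were −0.15, 0.12 and −0.26 in hog1del, −0.44, −0.13 and −0.02 in HOG1-CCAAX, and −0.17, −0.39 and −0.19 in HOG1-GFP. FLO11 fell in hog1del, with every value at 60 min below every value at 0 min, and it was not higher at 60 min in that strain than in the others in any replicate. The response in hog1del was −0.67 ± 0.39 (1.59-fold, limma adjusted p = 0.0103), a call lost without replicate 2 (adjusted p = 0.1842) or replicate 3 (adjusted p = 0.114). It was −0.09 ± 0.33 in HOG1-CCAAX (adjusted p = 0.6913) and −0.30 ± 0.17 in HOG1-GFP (adjusted p = 0.1863, 0.0428 with the replicate block and 0.0178 without replicate 1). At 60 min FLO11 was higher in HOG1-CCAAX than in hog1del by 0.49 ± 0.21 in 3 of 3 replicates (limma adjusted p = 0.0317). That call was lost with no replicate block (adjusted p = 0.3267), with the median over technical arrays (adjusted p = 0.1122) and without replicate 2 or 3 (adjusted p = 0.3089 and 0.2744).

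YIR020C is an open reading frame on the side of FLO11 where RefSeq also annotates the noncoding RNA gene ICR1. Its mean responses, like those of FLO11, were lowest in hog1del and highest in HOG1-CCAAX. It responded by −0.33, −1.03 and −0.83 in hog1del, −0.16, −0.27 and −0.35 in HOG1-CCAAX, and −0.32, −0.47 and −0.51 in HOG1-GFP. It fell in hog1del (−0.73 ± 0.36, limma adjusted p = 0.0025) and in HOG1-GFP (−0.43 ± 0.10, limma adjusted p = 0.0340), and the change in HOG1-CCAAX did not pass (adjusted p = 0.1471). YAP5 (YIR018W), a transcription factor gene on the other side, rose in hog1del by 0.85 ± 0.41 and in HOG1-CCAAX by 0.66 ± 0.34 (limma adjusted p = 0.0044 and 0.0148), against 0.15 ± 0.26 in HOG1-GFP (adjusted p = 0.5226). The 3 profiles most like that of FLO11 were those of MPH3 (r = 0.913), DNF1 (0.905) and CDC26 (0.903).

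PGU1 encodes a secreted pectin-degrading enzyme and is widely used as a readout of the filamentation cascade. Its levels at 60 min were −0.36, 0.36 and 0.52 in hog1del, −0.73, −0.73 and −0.59 in HOG1-CCAAX, and −0.55, −0.64 and −0.62 in HOG1-GFP. At 0 min they were −0.07, 0.05 and 0.23 in hog1del, 0.06, −0.73 and −0.61 in HOG1-CCAAX, and −0.16, −0.66 and −0.60 in HOG1-GFP. In replicates 2 and 3 PGU1 was higher in hog1del than in both other strains already before the shock, and in replicate 1 the strains lay close together at that time. At 60 min hog1del exceeded HOG1-GFP by 0.20, 1.01 and 1.14, a mean of 0.78 ± 0.51 (1.72-fold, limma adjusted p = 0.0089), in a contrast where 27.2% of all genes passed. At 0 min the difference was 0.54 ± 0.40 (adjusted p = 0.2230, and 0.0106 without replicate 1). No PGU1 response passed, at 0.10 ± 0.34 in hog1del, −0.26 ± 0.47 in HOG1-CCAAX and −0.13 ± 0.23 in HOG1-GFP (adjusted p = 0.6683, 0.2864 and 0.5840). Without replicate 1 the response in hog1del was 0.30 and passed (adjusted p = 0.0175), and with the replicate block that in HOG1-CCAAX passed (adjusted p = 0.0493). The HOG1-CCAAX value came from replicate 1 (−0.80, against 0.01 and 0.03 in replicates 2 and 3) and was 0.02 without it. At 60 min HOG1-CCAAX was lower than hog1del by 0.86 ± 0.42 on the log2 scale (limma adjusted p = 0.0140) and differed from HOG1-GFP by −0.08 ± 0.11 (adjusted p = 0.8212). The calls at 60 min against hog1del did not hold with no replicate block (adjusted p = 0.0599 against HOG1-GFP, 0.1321 for HOG1-CCAAX), without replicate 2 (0.0939 and 0.1644) or without replicate 3 (0.1527 and 0.1872). YPL088W (r = 0.857), THI7 (0.824) and YDR355C (0.819) had the most similar profiles.

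**Figure D3:**
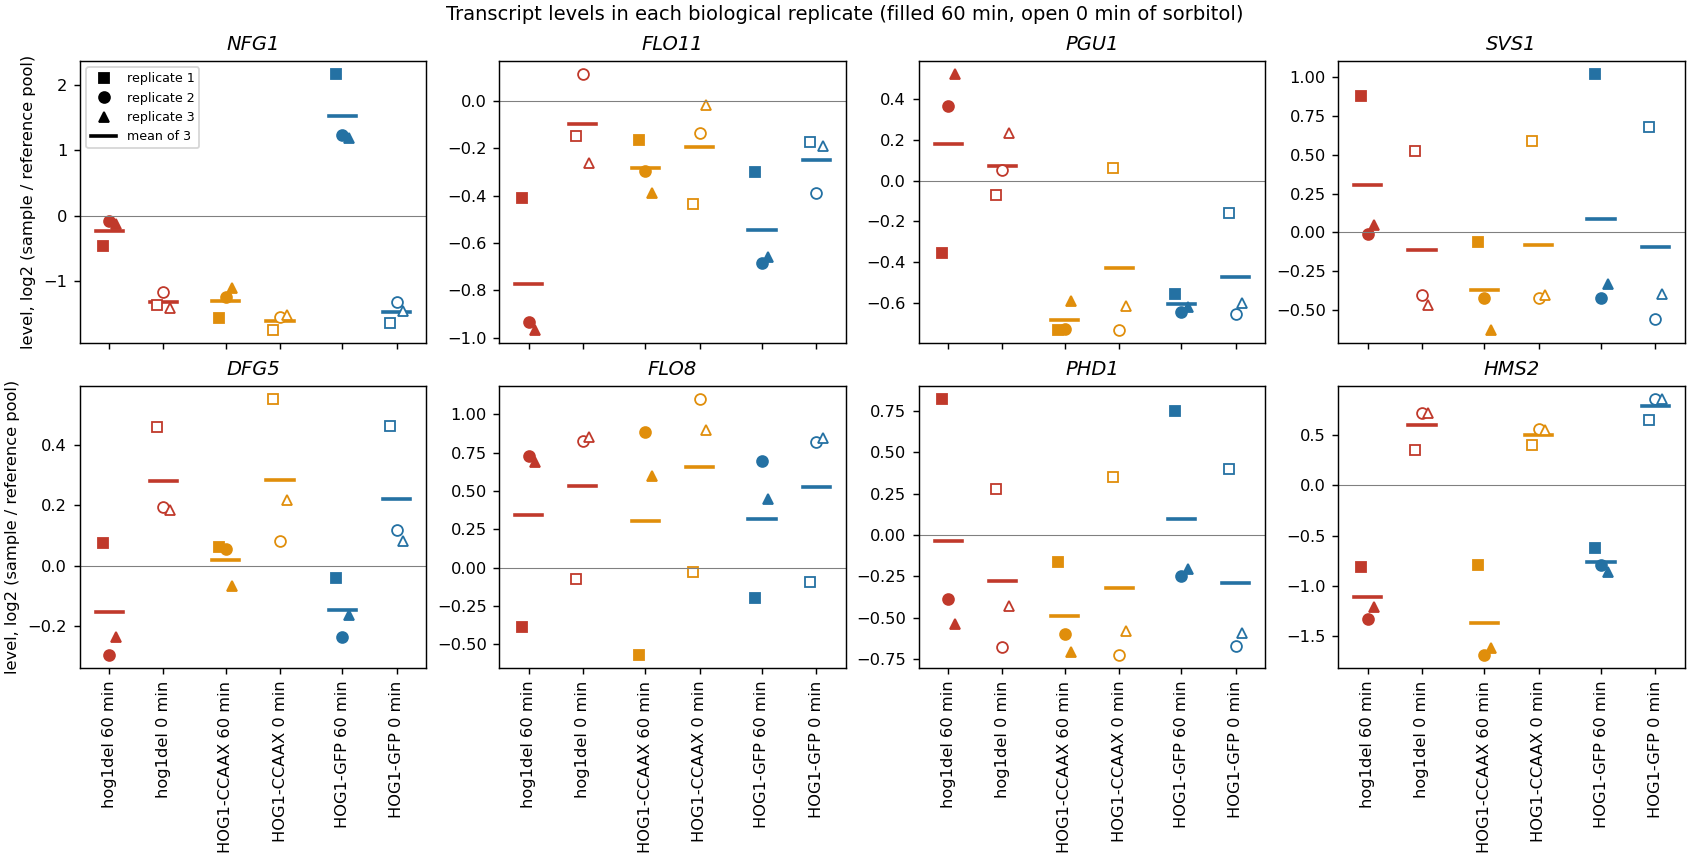
Levels (log2 of sample over reference pool) of the 8 genes in every biological replicate, at 60 min (filled) and 0 min (open), by strain; bars are means of 3, and each panel has its own vertical scale. Replicate 1 (squares) stands apart from replicates 2 and 3 for FLO8, SVS1 and PHD1, and PGU1 in hog1del lies above the other strains in replicates 2 and 3 at both times.

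SVS1, a wall and vacuole protein gene known for vanadate resistance, had responses of opposite sign in hog1del and HOG1-CCAAX. They were 0.35, 0.40 and 0.52 in hog1del, −0.65, −0.00 and −0.23 in HOG1-CCAAX, and 0.35, 0.14 and 0.07 in HOG1-GFP. All HOG1-CCAAX values lay below those of the other strains. SVS1 rose in hog1del by 0.42 ± 0.09 (1.34-fold, limma adjusted p = 0.0293, lost without replicate 2 at 0.1619 and without replicate 3 at 0.2695). The other 2 responses, −0.29 ± 0.33 and 0.18 ± 0.14, did not pass (adjusted p = 0.1016 and 0.3010). The response difference of HOG1-CCAAX minus hog1del was −0.71 ± 0.30 (adjusted p = 0.3434, and 0.0468 without replicate 1). Its levels at 60 min were 0.88, −0.01 and 0.05 in hog1del, −0.06, −0.43 and −0.63 in HOG1-CCAAX, and 1.02, −0.42 and −0.33 in HOG1-GFP. Replicate 1 was the highest in each strain, also at 0 min, where the strain means lay between −0.12 and −0.08. At 60 min HOG1-CCAAX was lower than hog1del by 0.68 ± 0.26 on the log2 scale (limma adjusted p = 0.0369, lost with no replicate block at 0.5202 and without replicate 2 or 3 at 0.0970 and 0.2379). SRL1 (r = 0.859), ERG8 (0.798) and DLS1 (0.787) had the most similar profiles to SVS1.

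DFG5 encodes a membrane-anchored putative mannosidase of the cell wall that is needed for filamentous growth. Its responses were −0.38, −0.49 and −0.42 in hog1del, −0.49, −0.03 and −0.28 in HOG1-CCAAX, and −0.50, −0.36 and −0.24 in HOG1-GFP. All 9 were negative, and the strains overlapped. DFG5 fell in hog1del by 0.43 ± 0.05 (limma adjusted p = 0.0152) and in HOG1-GFP by 0.37 ± 0.13 (limma adjusted p = 0.0338) on the log2 scale, calls that did not hold without replicate 2 (adjusted p = 0.1579 and 0.1974) or replicate 3 (adjusted p = 0.1735 and 0.1952). The response of −0.27 ± 0.23 in HOG1-CCAAX missed the threshold (adjusted p = 0.0921) and passed under median centring (adjusted p = 0.0343) and quantile normalization (adjusted p = 0.0405). No strain difference of DFG5 passed at either time. LAP3 (r = 0.958), MPH2 (0.951) and YBT1 (0.95) had the most similar profiles.

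HMS2, a gene resembling heat shock transcription factors whose overexpression is known to enhance filamentous growth, fell in every strain. Its levels at 60 min were −0.81, −1.33 and −1.21 in hog1del, −0.79, −1.69 and −1.62 in HOG1-CCAAX, and −0.63, −0.79 and −0.86 in HOG1-GFP. At 0 min they were 0.36, 0.73 and 0.72 in hog1del, 0.40, 0.56 and 0.55 in HOG1-CCAAX, and 0.66, 0.86 and 0.86 in HOG1-GFP. All 9 values at 60 min lay below all 9 at 0 min. HMS2 fell 3.29-fold in hog1del (−1.72 ± 0.48, limma adjusted p = 3.3e-04), 3.66-fold in HOG1-CCAAX (−1.87 ± 0.59, limma adjusted p = 1.7e-04) and 2.93-fold in HOG1-GFP (−1.55 ± 0.24, limma adjusted p = 6.7e-04). No response difference passed (adjusted p between 0.8674 and 0.9901). At 60 min HMS2 was lower in HOG1-CCAAX than in HOG1-GFP by 0.61 ± 0.39 on the log2 scale (limma adjusted p = 0.0263), in a contrast where 11.4% of all genes passed. That call was lost with no replicate block (adjusted p = 0.3503) and without replicate 2 or 3 (adjusted p = 0.2515 and 0.2458).

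The profile of HMS2 was most like those of FAF1, a gene of ribosome assembly (r = 0.992), RPL23B, a ribosomal protein gene (0.991), and YBL028C (0.989). RefSeq annotates YJR146W as overlapping HMS2. It had values in replicate 1 alone, with responses of −0.26 in hog1del, −0.15 in HOG1-CCAAX and 0.71 in HOG1-GFP, so that the overlapping frame did not show the fall of the HMS2 probe there. The labels do not say whether the probes read 1 strand.

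FLO8 encodes a transcription factor of FLO11 and of the flocculin genes, which the laboratory strain of the reference genome carries as a pseudogene. Its responses were −0.31, −0.10 and −0.16 in hog1del, −0.54, −0.22 and −0.30 in HOG1-CCAAX, and −0.11, −0.12 and −0.40 in HOG1-GFP. All 9 were negative and small. The response passed in HOG1-CCAAX (−0.35 ± 0.17, limma adjusted p = 0.0333), a call lost without replicate 1, 2 or 3 (adjusted p = 0.0537, 0.1526 and 0.2009), and not in hog1del or HOG1-GFP (adjusted p = 0.2088 and 0.1804). The levels of FLO8 differed more between replicates than between strains or times: replicate 1 lay between −0.57 and −0.03 and replicates 2 and 3 between 0.45 and 1.10. SAR1 (r = 0.917), SSP2 (0.884) and ZPS1 (0.879) had the most similar profiles once replicate means were taken off.

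PHD1 encodes a transcription factor whose overexpression is known to induce pseudohyphal growth. Its responses were 0.55, 0.29 and −0.11 in hog1del, −0.51, 0.13 and −0.13 in HOG1-CCAAX, and 0.35, 0.42 and 0.38 in HOG1-GFP. HOG1-GFP had the narrowest spread, and all its values lay above those of HOG1-CCAAX. The response in HOG1-GFP, 0.39 ± 0.04 (1.31-fold), missed the threshold (adjusted p = 0.0716) and passed with the replicate block (adjusted p = 0.0320), with the median over technical arrays (adjusted p = 0.0458), without the arrays numbered 1 (adjusted p = 0.0453) and without replicate 1 (adjusted p = 0.0165). Those of 0.24 ± 0.33 in hog1del and −0.17 ± 0.32 in HOG1-CCAAX did not pass (adjusted p = 0.2203 and 0.3817). At 60 min the levels of PHD1 were 0.82, −0.39 and −0.54 in hog1del, −0.16, −0.60 and −0.71 in HOG1-CCAAX, and 0.75, −0.25 and −0.21 in HOG1-GFP. HOG1-CCAAX was lower than HOG1-GFP in 3 of 3 replicates, by 0.59 ± 0.29 on the log2 scale (limma adjusted p = 0.0422). That call was lost with no replicate block (adjusted p = 0.6543), under quantile normalization (adjusted p = 0.0757) and without replicate 2 or 3 (adjusted p = 0.1124 and 0.1956).

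A second probe for PHD1, measured in replicates 2 and 3 only, did not follow the first. Its responses were 1.75 and 1.29 in hog1del, −0.23 and 1.67 in HOG1-CCAAX, and 0.80 and 0.69 in HOG1-GFP, where the first probe gave 0.29 and −0.11, 0.13 and −0.13, and 0.42 and 0.38. At 60 min the levels of the second probe were −0.05 and 0.81 in HOG1-CCAAX and 0.28 and −0.19 in HOG1-GFP. On this probe HOG1-CCAAX was thus lower than HOG1-GFP in replicate 2 and higher in replicate 3. The PHD1 values depended on the probe, and the widest gap of response was that of HOG1-CCAAX replicate 3. For the first probe the most similar profiles were those of SRL1 (r = 0.804), SVS1 (0.74) and NFG1 (0.724).

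Before the shock none of the 8 genes differed between strains by limma's adjusted p. At an unadjusted p under 0.05, 1 of 8 differed for hog1del minus HOG1-GFP, 1 for HOG1-CCAAX minus HOG1-GFP and 2 for HOG1-CCAAX minus hog1del. Of all 5443 genes, 596, 467 and 659 did so in these contrasts, and nothing is read from the counts of the 8. Over all genes, 0.937%, 0.276% and 0.276% passed the adjusted threshold at that time. At 60 min, 2 of 8 passed for hog1del minus HOG1-GFP (PGU1 higher, NFG1 lower). For HOG1-CCAAX minus HOG1-GFP 3 passed (NFG1, HMS2 and, by its first probe only, PHD1 lower). For HOG1-CCAAX minus hog1del 4 passed (FLO11 higher, NFG1, PGU1 and SVS1 lower). The share of all genes in the last of these contrasts was 11.2%. The NFG1 calls in all 3 contrasts rest on HOG1-GFP or hog1del values that chose the gene, and nothing is read from them. Of all genes, 13.9% were higher and 13.3% lower in the first contrast, 6.72% and 4.65% in the second, and 6.12% and 5.07% in the third. The medians of the 8 differences at 60 min were −0.07, −0.27 and −0.35, against −0.02, 0.02 and 0.05 over all genes. Without replicate 1 the counts at 60 min were 4, 3 and 4. In those fits 2012, 969 and 1322 of all 5443 genes passed, against 1480, 619 and 609 with replicate 1.

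**Figure D4:**
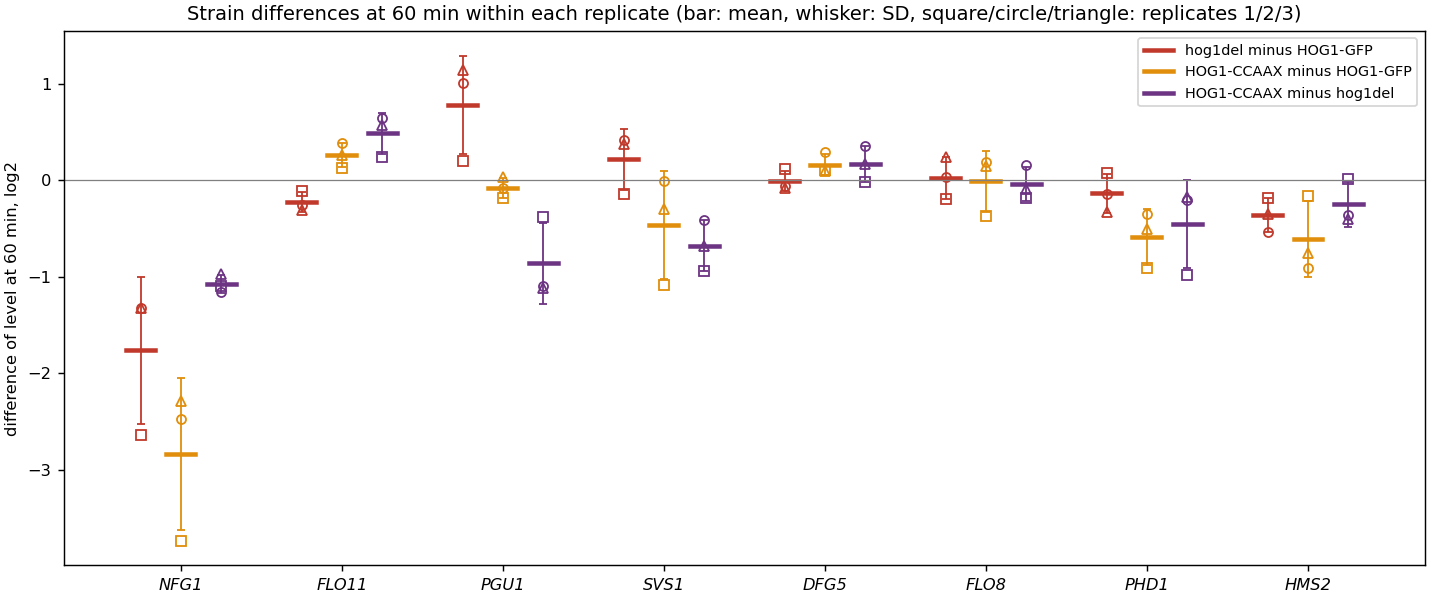
Difference of level at 60 min (log2) between strains, formed within each replicate (squares, circles and triangles for replicates 1, 2 and 3), with means as bars and SDs as whiskers. NFG1 lies below 0 in all 3 contrasts, with means of −1.76, −2.83 and −1.07, and PGU1 lies above 0 in hog1del minus HOG1-GFP (0.78) and below 0 in HOG1-CCAAX minus hog1del (−0.86).

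Among the 8 genes, the profiles over 18 level values, with replicate means taken off, correlated most for HMS2 and DFG5 (r = 0.755), SVS1 and PHD1 (0.74), and PHD1 and NFG1 (0.724). The lowest was that of DFG5 and NFG1 (−0.757), followed by FLO11 and NFG1 (−0.53). PGU1 and NFG1 stood at −0.066. All points share arrays, extracts and the reference pool.

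**Figure D5:**
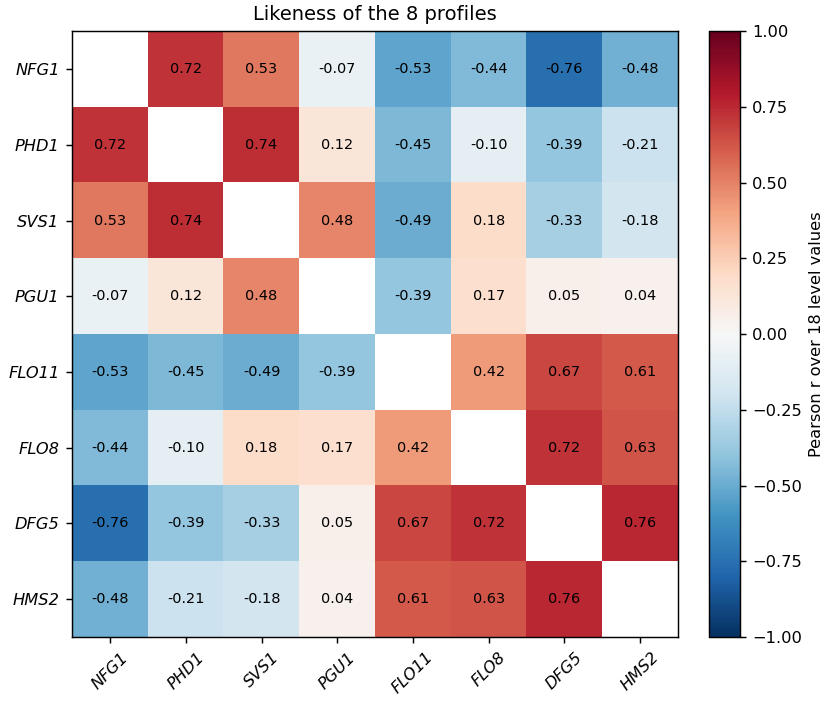
Pearson correlation of each pair of the 8 genes over their 18 level values after the mean of each replicate was taken off. HMS2, DFG5, FLO8 and FLO11 correlate positively with each other (0.424 to 0.755), and NFG1 correlates positively with PHD1 (0.724) and SVS1 (0.529).

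The genes of the cascade upstream were counted in the same way. Of 15 tested genes of the filamentation MAP kinase cascade, 11 rose and 1 fell in hog1del, 10 rose and 2 fell in HOG1-CCAAX, and 4 rose and 1 fell in HOG1-GFP. The background shares of genes that passed upward and downward were 25.6% and 27.4% in hog1del, 28.1% and 26.1% in HOG1-CCAAX, and 24.0% and 22.7% in HOG1-GFP. Without replicate 1, 8 rose and 2 fell in HOG1-GFP, where 3770 of all 5443 genes passed in either direction, against 2545 with it. For the difference of response of hog1del minus HOG1-GFP, 2 of the 15 were higher, against 1.64% of all genes, and none was lower. These 2 were TEC1 (YBR083W), at 2.84 ± 0.16 in hog1del and 0.21 ± 0.11 in HOG1-GFP, and STE12 (YHR084W), at 1.89 ± 0.14 and 0.02 ± 0.11 (limma adjusted p of the differences 7.4e-04 and 9.2e-04). In HOG1-CCAAX the response of TEC1 was 1.76 ± 0.34 (limma adjusted p = 1.6e-05) and that of STE12 was 0.33 ± 0.07 (limma adjusted p = 0.0310). KSS1 and MSB2, the cascade's kinase and a mucin-like sensor, rose in hog1del by 0.85 ± 0.34 and 0.72 ± 0.08 (limma adjusted p = 0.0015 and 0.0019), against 0.31 ± 0.09 and 0.20 ± 0.12 in HOG1-GFP, and their differences did not pass (adjusted p = 0.2537 and 0.2121).

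Of 21 tested nutrient-sensing regulators, 11 rose and 4 fell in hog1del, 12 and 2 in HOG1-CCAAX, and 9 and 3 in HOG1-GFP. For hog1del minus HOG1-GFP, 1 of the 21 was higher in response, against 1.64% of all genes. It was NRG2 (YBR066C), a repressor gene, at 2.94 ± 0.35 in hog1del, 2.52 ± 0.24 in HOG1-CCAAX and 0.73 ± 0.57 in HOG1-GFP (limma adjusted p = 0.0065 for hog1del minus HOG1-GFP). NRG1, its paralog, which represses FLO11, rose in all 3 strains, by 2.50 ± 0.37, 2.63 ± 0.89 and 1.62 ± 1.05 in hog1del, HOG1-CCAAX and HOG1-GFP (limma adjusted p = 7.6e-04, 4.9e-04 and 0.0084). MEP2, an ammonium transporter and sensor, fell in HOG1-GFP (−0.66 ± 0.55, limma adjusted p = 0.0154), against −0.10 ± 0.13 in hog1del (adjusted p = 0.6601). Of 20 tested flocculin, wall and budding genes, 7 rose and 4 fell in hog1del, 8 and 5 in HOG1-CCAAX, and 7 and 4 in HOG1-GFP. The shares of all genes that passed upward and downward were 25.6% and 27.4%, 28.1% and 26.1%, and 24.0% and 22.7% in these strains, and the counts of the 20 genes lie near them.

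Among these wall and budding genes, PCL2 (YDL127W), a G1 cyclin gene, was the 1 gene that differed in response between hog1del and HOG1-GFP. It rose by 3.07 ± 0.24 in hog1del and 1.32 ± 0.12 in HOG1-GFP (limma adjusted p of the difference 0.0014). FLO5, a flocculin gene with close paralogs whose probes may cross-hybridize, fell in hog1del by 1.21 ± 0.31 on the log2 scale (limma adjusted p = 2.2e-04) and changed by −0.38 ± 0.31 in HOG1-GFP (adjusted p = 0.0667). GIC2, an effector of the polarity GTPase Cdc42, rose in hog1del by 1.56 ± 0.57 and in HOG1-GFP by 0.61 ± 0.18 (limma adjusted p = 3.4e-04 and 0.0414). CLN1, a G1 cyclin gene tied to filamentous growth, changed by 0.32 ± 0.15 in hog1del (adjusted p = 0.0513) and fell in HOG1-GFP by 0.42 ± 0.19 on the log2 scale (limma adjusted p = 0.0198).

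Of 9 tested mating genes, 8 rose in hog1del, 3 in HOG1-CCAAX and 2 in HOG1-GFP, and none fell. Of all genes, 25.6%, 28.1% and 24.0% passed upward in these strains, and the counts in HOG1-CCAAX and HOG1-GFP lie near those shares. Without replicate 1 the counts of mating genes were 9, 8 and 6. In those fits 3983, 4031 and 3770 of all 5443 genes passed in either direction, against 2880, 2948 and 2545 with replicate 1. In response, 4 of the 9 were higher in hog1del than in HOG1-GFP, against 1.64% of all genes. With the replicate block 8 were higher, in a fit where 804 of all 5443 genes passed in either direction, against 140 without it. KAR4, a mating transcription factor gene, rose by 3.15 ± 0.38 in hog1del and 1.09 ± 0.27 in HOG1-GFP. BAR1, which encodes the protease that degrades alpha factor, rose by 2.65 ± 0.63 and 0.72 ± 0.09, and AGA1, an agglutinin subunit gene, stood at 2.06 ± 0.57 and 0.19 ± 0.26 in the same strains. The limma adjusted p of these differences was 0.0052, 0.0156 and 0.0339. FUS1, a cell fusion gene, varied most, at 3.41 ± 2.13 in hog1del and 1.44 ± 0.74 in HOG1-GFP (adjusted p of the difference 0.3643).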

How the data were processed

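Transcripts of 3 strains at 2 times were measured on 42 arrays with 2 colours. Per the labels' protocols, total RNA was amplified to amino-allyl RNA, and samples carried Cy3 and a common reference pool Cy5. The deposited values are log2 ratios of reference over sample that the authors combined over technical arrays, and signs were turned once. Of the level values, 85.8% lay within 0.01 of the mean of their arrays. Others did not, such as FLO8 in HOG1-GFP replicate 2 at 60 min, with a level of 0.698 and arrays at 0.56 and 0.698. The labels do not state scaling, background treatment or spot filters. The deposited fold changes equal differences of the levels to within 5e-07. Arrays give no counts, and their number limits the precision.

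Genes with a value in all 18 columns (5443 of 6278) were tested with limma 3.58.1 in R 4.3.3 (lmFit and eBayes, two-sided): responses on 9 fold changes by strain, their differences as contrasts, and levels at each time with a replicate block. The Benjamini-Hochberg adjustment ran over 5443 genes. The script was tested on simulated data. Values are mean ± SD over 3 replicates. A fold is 2 raised to the size of the mean. As nothing says that replicates came from separate cultures, p values measure only the spread between these samples.

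Deviations of equal replicate number correlated between strains at 0.44 to 0.82 for responses, 0.74 to 0.91 for levels at 0 min and 0.46 to 0.80 at 60 min. Unequal numbers reached 0.61, 0.81 and 0.68. These ranges overlap, so the check cannot settle whether the replicate numbers pair the strains, which the block in the level fits takes as given. The response fits carry no replicate term, and their fit with it is an alternative, printed where it changes a call. The genes and lists were chosen with earlier results of these data known. The rule names all 8 genes, the 3 most similar profiles of each, and in each of 4 lists the 4 genes that differ most in response between hog1del and HOG1-GFP. Gene symbols and neighbours come from RefSeq (5804 names matched). Intergenic probes and sequences are not used here. Alternatives were the block, median centring, quantile normalization, genes with at least 2 replicates per strain, the median over technical arrays, leaving out each replicate, and, chosen after seeing the data, replicate 1 without its arrays numbered 1.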

Additional observations from a re-analysis of the deposited data

Results flagged for a closer look

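The response of NFG1 stood out as different between strains, because the interaction term of strain and time lay past its threshold. It was lower in hog1del than in HOG1-GFP, with a difference of −1.92 on the log2 scale, and lower in HOG1-CCAAX than in HOG1-GFP, with a difference of −2.70. Both had the same sign in 3 of 3 replicates. The HOG1-GFP values in both differences, and the hog1del values in the first, also selected the gene for the deposited list, so both are descriptions and support nothing. Without replicate 2 or without replicate 3 neither lay past the threshold.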

How the results depend on the processing

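Of 864 values of the 8 genes under the alternatives, 804 kept their side of the threshold, and 60 changed it. No value that passed in the main fit, in the alternative or in both changed sign between them, and signs were followed for such values only. Counts of all genes moved more, and the cause was not tested. With the replicate block, the response differences of hog1del minus HOG1-GFP, HOG1-CCAAX minus HOG1-GFP and HOG1-CCAAX minus hog1del had 804, 184 and 139 genes past the threshold, against 140, 18 and 7 without it. With no replicate block, the same contrasts of levels gave 4, 0 and 2 genes at 0 min (51, 15 and 15 with it) and 436, 106 and 50 at 60 min (1480, 619 and 609 with it). Of the 0, limma gave 58 genes an unadjusted p under 0.05. Quantile normalization gave 11 genes for the response difference of HOG1-CCAAX minus hog1del and 8 for HOG1-CCAAX minus HOG1-GFP at 0 min, where the median over technical arrays gave 9 and replicate 1 without its arrays numbered 1 gave 6. Leaving out 1 replicate at a time, where the highest counts came without replicate 1, gave 1194 to 3983, 1413 to 4031 and 1076 to 3770 genes for the responses of hog1del, HOG1-CCAAX and HOG1-GFP. For the 3 contrasts in the order above, it gave 0 to 1158, 0 to 487 and 0 to 500 genes for responses, 11 to 64, 6 to 39 and 7 to 40 for levels at 0 min, and 380 to 2012, 120 to 969 and 84 to 1322 for levels at 60 min. Where a response difference had 0 genes without replicate 2 or 3, limma gave 94 to 331 genes an unadjusted p under 0.05. Pairs of technical arrays that held an array numbered 1 of replicate 1 agreed least. Without those arrays, 1220, 580 and 533 genes passed in the 3 contrasts of levels at 60 min, against 1480, 619 and 609 with them.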
